A study of Mus musculus with 4 samples.

Results

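Condensin, cohesin, topoisomerase II alpha and Ki-67 shape chromosomes as cells pass through division. The 10 genes examined here were the condensin genes *Smc2*, *Smc4*, *Ncaph*, *Ncapg* and *Ncapd2*, the cohesin genes *Smc1a*, *Smc3* and *Rad21*, and *Top2a* and *Mki67*. They were chosen by name, with earlier results of these data known, and all 10 had a row in a table of 20197 genes. The values came from 4T1 cells, a mouse mammary carcinoma line of wild-type genotype. These cells were stained with the potential-dependent dye MitoSpy Red at 20 nM, and the 5% with the highest and the 5% with the lowest mitochondrial membrane potential (MMP) were sorted. Each group had 2 samples of 100000 cells with no other treatment, so both groups were stained, trypsinized and sorted extremes of 1 cell line and no unsorted sample was used. The samples of a group are described in the study as independent experiments. Whether samples with the same number were sorted together is not given in the sources used here.

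Condensin and cohesin are ring-shaped complexes built on pairs of SMC ATPases that are closed by a kleisin subunit. Condensin compacts chromosomes for mitosis by extruding loops of DNA, and cohesin holds sister chromatids together from replication until anaphase and also forms loops in interphase. Topoisomerase II alpha passes one DNA duplex through another and untangles sister chromatids, and Ki-67 coats mitotic chromosomes and keeps them apart. *Top2a* and *Mki67* are both used as proliferation markers, and their transcripts accumulate from S phase towards mitosis, whereas cohesin is used in every phase of the cycle.

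Many genes that peak late in the cell cycle carry a short promoter element, the cell cycle genes homology region (CHR), often near CCAAT boxes. The RefSeq promoter table on build GRCm38.p6 matched 8 of the 10 genes, all but *Smc4* and *Rad21*. The 250 bases before the start site in that table were searched on both strands. The motifs were TTTGAA (the usual CHR), TTCGAA (a variant, which reads the same on both strands) and CCAAT. Every match was counted, even where it overlapped another. TTTGAA or TTCGAA was found before 5 of the 8 genes, against 17.1% of all 32851 windows of this length in the table, and CCAAT before 6 of the 8, against 33.8%. Both kinds were found together before 5 of the 8, against 6.02% of all windows, and these 5 were *Top2a*, *Mki67*, *Smc2*, *Ncapg* and *Ncapd2*. Shown are the gene with the largest difference between the groups (*Top2a*), a gene with both kinds of motif but overlapping groups (*Mki67*), the condensin gene with the largest difference (*Ncaph*) and a cohesin gene with overlapping groups (*Smc3*). Capitals mark the matches, in either orientation (TTCAAA and ATTGG are the same motifs on the other strand).
Top2a, chr11:99024190-99024439, minus strand: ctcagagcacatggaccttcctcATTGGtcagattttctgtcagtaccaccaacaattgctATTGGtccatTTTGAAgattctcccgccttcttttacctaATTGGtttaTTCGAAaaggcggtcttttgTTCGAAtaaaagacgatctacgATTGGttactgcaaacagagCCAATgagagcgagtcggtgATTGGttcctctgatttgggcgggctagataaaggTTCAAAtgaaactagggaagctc
Mki67, chr7:135716380-135716629, minus strand: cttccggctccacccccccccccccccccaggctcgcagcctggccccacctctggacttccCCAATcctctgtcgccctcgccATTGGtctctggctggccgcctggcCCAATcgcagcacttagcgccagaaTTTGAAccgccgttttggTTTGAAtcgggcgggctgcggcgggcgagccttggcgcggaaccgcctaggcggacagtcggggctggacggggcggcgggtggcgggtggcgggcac
Ncaph, chr2:127133955-127134204, minus strand: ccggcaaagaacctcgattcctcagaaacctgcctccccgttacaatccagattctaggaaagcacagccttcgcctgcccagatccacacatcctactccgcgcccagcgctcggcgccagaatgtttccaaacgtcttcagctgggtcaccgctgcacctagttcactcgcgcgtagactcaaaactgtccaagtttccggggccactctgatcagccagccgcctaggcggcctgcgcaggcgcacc
Smc3, chr19:53600146-53600395, plus strand: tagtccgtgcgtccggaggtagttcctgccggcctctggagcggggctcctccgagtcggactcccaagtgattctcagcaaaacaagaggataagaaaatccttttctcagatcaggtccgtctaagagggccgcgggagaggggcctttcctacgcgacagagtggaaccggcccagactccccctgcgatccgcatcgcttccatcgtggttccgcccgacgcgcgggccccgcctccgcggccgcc
The window of *Top2a* held 2 matches to TTTGAA, 2 to TTCGAA and 6 to CCAAT. The *Mki67* window held 2 to TTTGAA and 3 to CCAAT, while those of *Ncaph* and *Smc3* held none of the 3 motifs. The windows not shown held 1 TTTGAA and 1 CCAAT (*Smc2*), 1 and 1 (*Ncapg*), 1 and 3 (*Ncapd2*), and 1 CCAAT only (*Smc1a*). Gene positions given below come from another annotation, whose starts can differ. Part of the *Ncapd2* window (125191587 to 125191836) lies inside the gene as positioned there (125168007 to 125191701). So does the very end of the *Ncapg* window. A match describes the letters and is not evidence of binding.

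To compare the sorted populations, deposited values were used as normalized reads, on a scale where each library sums to about 20000000. Whole reads could be recovered from them, and the libraries held 22591970 to 26395015 reads assigned to genes. The members were well covered, with 1691 to 49007 reads per gene and library. The SD expected from counting alone was at most 0.035 on the log2 scale. The epithelial markers *Epcam*, *Cdh1*, *Krt7*, *Krt8*, *Krt14* and *Krt18* were all expressed (summed level 47592 to 65174) in these libraries of a mammary carcinoma line. Of 12 leukocyte, endothelial and fibroblast markers, 4 had no row (*Lyz2*, *Cd3e*, *Itgam* and *Kdr*), *Ptprc*, *Pecam1* and *Col1a2* were at or below 5.30 in each library, and most of the remaining signal was *Pdgfra* (319.0 and 363.2 in high and 536.1 and 588.7 in low MMP libraries) and *Cd68* (59.86 to 149.1).

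*Top2a* stood apart from the other 9 genes and was 1.94 times as abundant in high as in low MMP cells, and 4 of the 5 condensin genes were 1.14 to 1.31 times as abundant. The cohesin genes *Smc3* and *Rad21*, the condensin gene *Ncapd2* and *Mki67* had overlapping groups, and *Smc1a* was 13.2% higher in high MMP cells. Differences below are high minus low MMP on the log2(normalized reads + 1) scale, tested with limma. Adjusted p-values are Benjamini-Hochberg values, in limma and edgeR over all 20197 genes. Those of DESeq2 are over the smaller set of genes kept by its default filters, so they are not on the same footing. No gene (0.0%) passed an adjusted p of 0.05 in limma, where 2011 genes (9.96%) had an unadjusted p under 0.05. Also edgeR on the recovered reads called none, with 651 genes higher and 772 lower at an unadjusted p under 0.05. DESeq2 on these reads called 118 genes (0.584%), 82 of them (0.406% of all genes) higher in high MMP cells, and *Top2a* was the only member among them. An unadjusted limma p under 0.05 was reached by 4 of the 10 members (*Top2a*, *Ncaph*, *Smc4* and *Smc2*), all higher in high MMP cells, against 3.95% of all genes in that direction. Among 4750 abundant genes (averaging 1000 normalized reads or more), a level that all 10 members exceeded and that was chosen after the values were seen, 3.66% were higher, 3.09% lower and 6.76% either by this measure. With no variance trend in limma the count of members was 2 instead of 4. In that fit 782 of all 20197 genes were higher and 1198 lower at this threshold. Without low MMP replicate 1 the differences of *Top2a*, *Ncaph*, *Smc4* and *Smc2* were 0.891, 0.316, 0.319 and 0.245. Without low MMP replicate 2 they were 1.021, 0.469, 0.306 and 0.307. Only differences are given for these fits, since a lone low MMP library shows no spread. For 6 members both high MMP libraries were above both low MMP libraries, which was so for 13.5% of all genes and for 15.6% of those 4750 abundant genes. The reverse order held for 0 members, 24.5% of all genes and 18.9% of the abundant ones, so that 37.9% and 34.5% had no overlap in either direction. The median difference over the members was 0.18, beside -0.04 over all genes and -0.01 over the abundant ones. It was 0.28 over the condensin genes and 0.00 over the cohesin genes. Differences between the medians taken within each library were smaller for condensin (0.05) and below 0 for cohesin (-0.08). These medians fell on the gene of middle level. In most libraries it was *Ncapd2* (difference 0.03) for condensin and *Smc3* (-0.08) for cohesin.

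**Figure D1:**
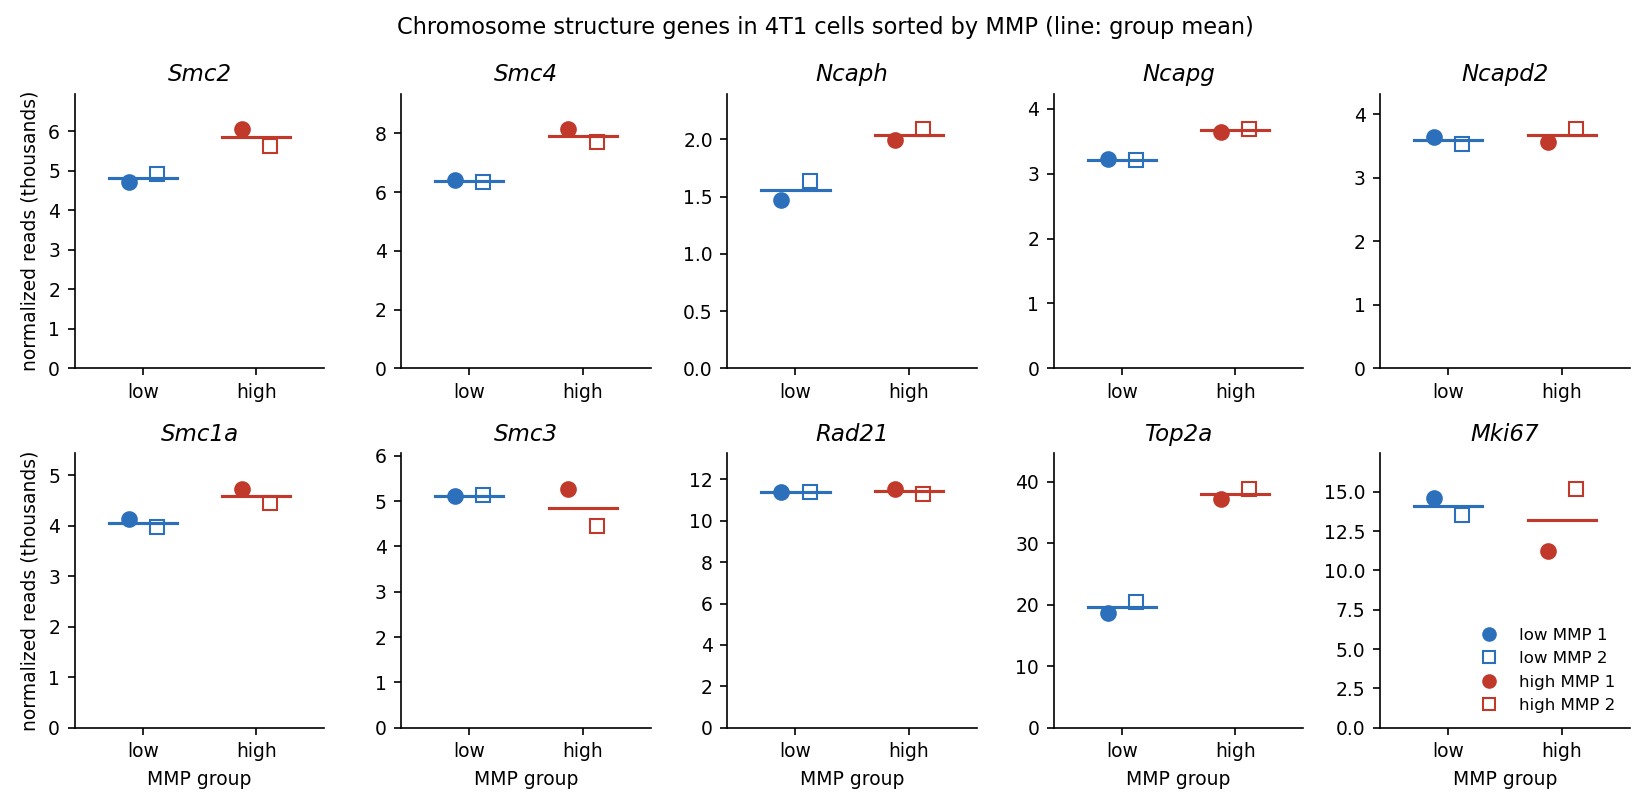
Normalized reads (in units of 1000, axes from 0) of the 10 genes in each library, low MMP in blue and high MMP in red, with circles for replicate 1, open squares for replicate 2 and lines for group means. *Top2a* has 37134 and 38824 reads in high MMP and 18715 and 20473 in low MMP libraries, while the high MMP replicates of *Mki67* lie on either side of the low MMP ones.

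*Top2a* (ENSMUSG00000020914, GRCm38 chromosome 11, 98992943 to 99024189, minus strand) encodes topoisomerase II alpha, the isoform of dividing cells. It had 37134 and 38824 normalized reads in high MMP replicates 1 and 2, and 18715 and 20473 in low MMP replicates 1 and 2. The groups were separated by 16661 normalized reads, far more than the replicates of either group differed. The means were 37979 ± 1195 for high MMP and 19594 ± 1243 for low MMP (SD, n = 2), a ratio of 1.94. On the log2 scale the difference was 0.96 (SE 0.13, 95% interval 0.60 to 1.31), with an unadjusted limma p of 0.00155, the 47th smallest of all genes, and an adjusted p of 0.472. In DESeq2 the difference was 1.00 with an adjusted p of 1.36e-09, and edgeR with no block gave an adjusted p of 0.524. Leaving out any 1 library kept the log2 difference between 0.89 and 1.02.

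*Mki67* (ENSMUSG00000031004, chromosome 7, 135689784 to 135716361, minus strand) encodes Ki-67. Its level was 11214 and 15182 normalized reads in high and 14609 and 13537 in low MMP libraries. The high MMP replicates were the lowest and the highest of the 4 libraries, so the groups overlapped completely. The difference was -0.11 (SE 0.18, 95% interval -0.61 to 0.39; limma adjusted p 0.930), and it was 0.11 without high MMP replicate 1. Since the counting SD was at most 0.012 for this gene, the high MMP samples differed from each other by far more than counting error. Per kb of exon, the ratio of *Top2a* to *Mki67* was 3.70 and 2.85 in high and 1.43 and 1.69 in low MMP libraries, so these proliferation markers stood in a different proportion in each high MMP library than in each low MMP library. Such a ratio does not depend on the scaling of a library. In bulk RNA of sorted cells, more cells in a given phase and more transcript per cell cannot be told apart.

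The SMC subunits that form the core of condensin were both higher in high MMP cells. *Smc2* (ENSMUSG00000028312, chromosome 4, 52439243 to 52488260, plus strand) had 6053 and 5643 normalized reads in high and 4722 and 4930 in low MMP libraries. *Smc4* (ENSMUSG00000034349, chromosome 3, 69004738 to 69034623, plus strand) had 8134 and 7712 in high and 6405 and 6348 in low MMP libraries. Neither gene had overlapping groups, and the lowest high MMP library was above the highest low MMP library by 712.7 and 1307 normalized reads, respectively. The log2 difference was 0.28 for *Smc2* (SE 0.09, 95% interval 0.03 to 0.52) and 0.31 for *Smc4* (SE 0.09, 95% interval 0.07 to 0.55), each with a limma adjusted p of 0.472. Their proportion hardly varied, as the per-kb ratio of *Smc2* to *Smc4* was 0.708 and 0.696 in high and 0.701 and 0.739 in low MMP libraries, with overlapping groups.

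Among the subunits that are found only in condensin I, the complex that reaches chromosomes after the nuclear envelope breaks down, *Ncaph* differed most. *Ncaph* (ENSMUSG00000034906, chromosome 2, 127103809 to 127133954, minus strand) encodes the kleisin and had 1995 and 2087 normalized reads in high and 1474 and 1640 in low MMP libraries. It was 31.1% higher in high MMP cells, a log2 difference of 0.39 (SE 0.09, 95% interval 0.14 to 0.64; limma adjusted p 0.472, DESeq2 adjusted p 0.268). *Ncapg* (ENSMUSG00000015880, chromosome 5, 45669919 to 45700546, plus strand) encodes a HEAT-repeat subunit and had 3651 and 3685 in high and 3222 and 3215 in low MMP libraries. The *Ncapg* replicates were close to each other and the groups did not overlap, with a difference of 0.19 (SE 0.07, 95% interval -0.01 to 0.39; limma adjusted p 0.536). Its exons share 944 bases with the antisense gene *Lcorl* (mean 376.8 normalized reads), and whether the counting used strand is not given in the sources used here. *Ncapd2* (ENSMUSG00000038252, chromosome 6, 125168007 to 125191701, minus strand), the other HEAT-repeat subunit, had 3567 and 3759 in high and 3646 and 3524 in low MMP libraries. Its groups overlapped, with a difference of 0.03 (SE 0.08, 95% interval -0.19 to 0.25; limma adjusted p 0.964).

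The proportions of the condensin I subunits thus differed between the high and low MMP libraries measured. Per kb of exon, the ratio of *Ncaph* to *Ncapd2* was 0.814 and 0.808 in high and 0.588 and 0.677 in low MMP libraries, and that of *Ncapg* to *Ncapd2* was 0.908 and 0.869 against 0.784 and 0.809. Condensin II, which is nuclear throughout the cycle, shares *Smc2* and *Smc4* and has its own kleisin and HEAT-repeat subunits. Against these counterparts, the ratio of *Ncaph* to *Ncaph2* was 0.603 and 0.670 in high and 0.435 and 0.476 in low MMP libraries, and that of *Ncapg* to *Ncapg2* was 1.35 and 1.26 against 1.02 and 1.03. The ratio of *Ncapd2* to *Ncapd3* went the other way, at 2.18 and 2.14 in high and 2.27 and 2.49 in low MMP libraries. In none of these 5 ratios did the groups overlap, and they are given as a description with no test. They reuse *Ncaph*, *Ncapg* and *Ncapd2*, so they are not separate observations. The share of non-overlapping ratios among other genes was not computed, and among single genes it was 37.9%.

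**Figure D2:**
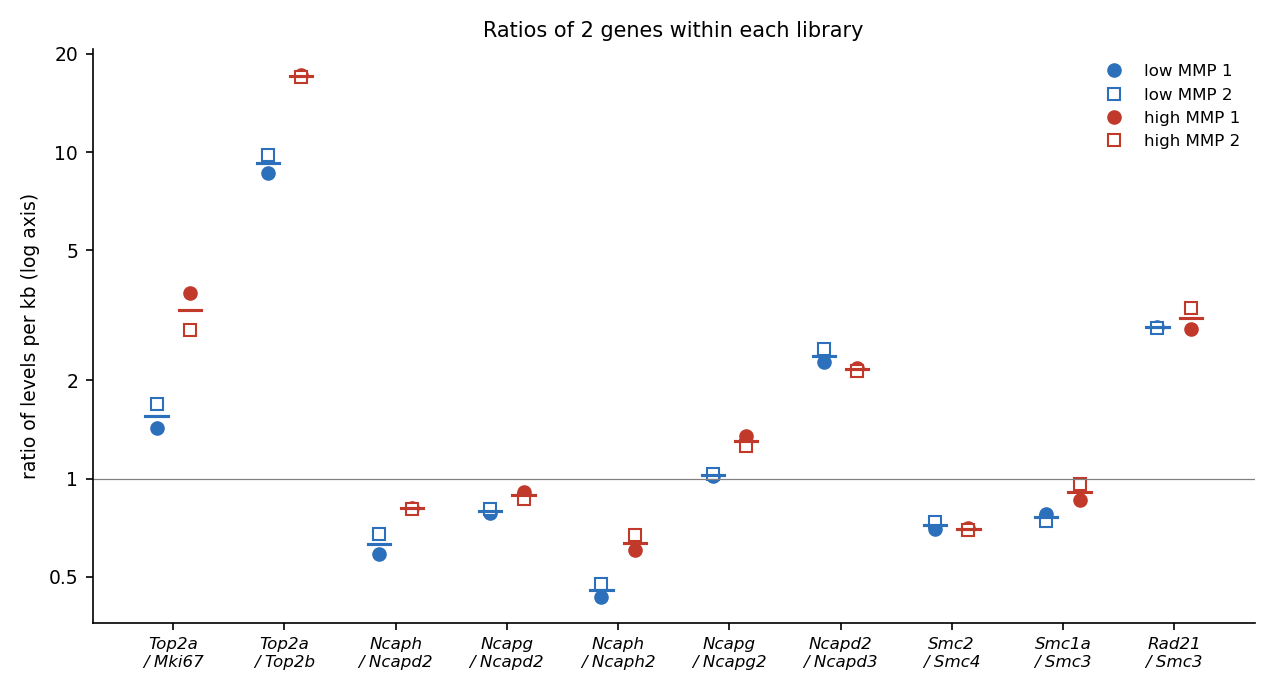
Ratio of the levels per kb of exon of 2 genes within each library (log axis), low MMP in blue and high MMP in red, with circles for replicate 1, open squares for replicate 2 and lines for group means. The ratios of *Top2a* to *Mki67* and to *Top2b* are higher in both high MMP libraries, *Ncapd2* to *Ncapd3* is lower, and *Smc2* to *Smc4* and *Rad21* to *Smc3* overlap.

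By the median difference over its genes, the cohesin ring (0.005) differed less than condensin (0.276). Between the medians taken within each library, the differences were 0.048 for condensin and -0.079 for cohesin, so this order did not hold by size. *Smc3* (ENSMUSG00000024974, chromosome 19, 53600398 to 53645833, plus strand), the ATPase whose acetylation stabilizes cohesion, had 5268 and 4445 normalized reads in high and 5104 and 5136 in low MMP libraries. High MMP replicate 1 was above and replicate 2 below both low MMP libraries, and the difference was -0.08 (SE 0.12, 95% interval -0.40 to 0.23; limma adjusted p 0.906). *Rad21* (ENSMUSG00000022314, chromosome 15, 51962240 to 51991747, minus strand) encodes the kleisin that separase cuts at anaphase. It had 11532 and 11304 in high and 11376 and 11387 in low MMP libraries, relative to its level the narrowest range of the 10 genes, with a difference of 0.00 (SE 0.09, 95% interval -0.25 to 0.26; limma adjusted p 0.994). *Smc1a* (ENSMUSG00000041133, chromosome X, 152016428 to 152062694, plus strand), the partner of *Smc3*, had 4732 and 4460 in high and 4145 and 3978 in low MMP libraries. Its groups did not overlap, with 315.0 normalized reads between them, and the difference was 0.18 (SE 0.08, 95% interval -0.05 to 0.41; limma adjusted p 0.617). The per-kb ratio of *Smc1a* to *Smc3* was 0.863 and 0.964 in high and 0.780 and 0.744 in low MMP libraries. Summed per kb, the 5 condensin genes stood at 0.938 and 0.969 of the 3 cohesin genes in high MMP and at 0.802 and 0.816 in low MMP libraries. This ratio also did not overlap and is given as a description with no test.

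**Figure D3:**
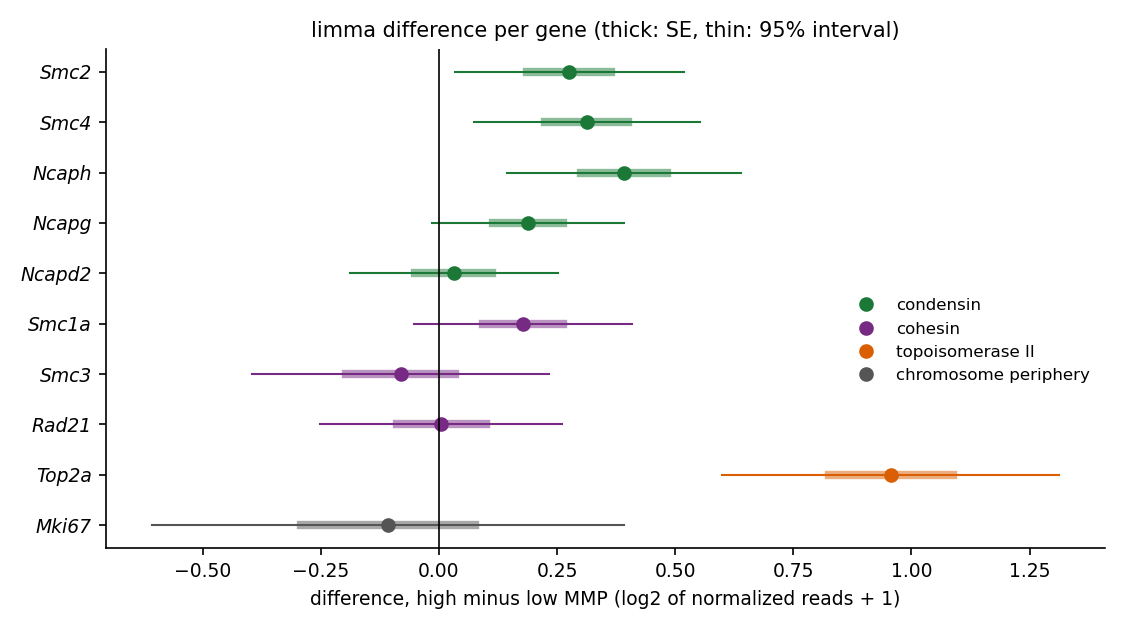
Difference of each gene between high and low MMP cells on the log2(normalized reads + 1) scale, colored by complex, with dots for the limma estimate, thick bars for its SE and thin bars for its 95% interval. The interval of *Top2a* (0.60 to 1.31) lies above those of *Smc3*, *Rad21*, *Ncapd2* and *Mki67*, each of which spans 0.

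The levels of the genes were compared as normalized reads per kb of exon. By the mean of the 4 libraries the order was *Top2a* (3194), *Rad21* (2694), *Smc4* (1372), *Mki67* (1355), *Smc2* (974.3), *Smc3* (900.3), *Smc1a* (750.3), *Ncapd2* (578.3), *Ncapg* (487.3) and *Ncaph* (417.7). Some neighbors in this order had overlapping ranges over the libraries, namely *Top2a* and *Rad21*, *Smc4* and *Mki67*, *Smc2* and *Smc3*, *Smc3* and *Smc1a*, and *Ncapg* and *Ncaph*. *Top2a* and *Rad21* changed places, since *Top2a* was at 4120 and 4308 per kb in high MMP libraries, above *Rad21* (2725 and 2671), and at 2076 and 2271 in low MMP libraries, below *Rad21* (2688 and 2691). The union of annotated exons was taken as the length, so a level is too low where cells use only part of the annotated exons.

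**Figure D4:**
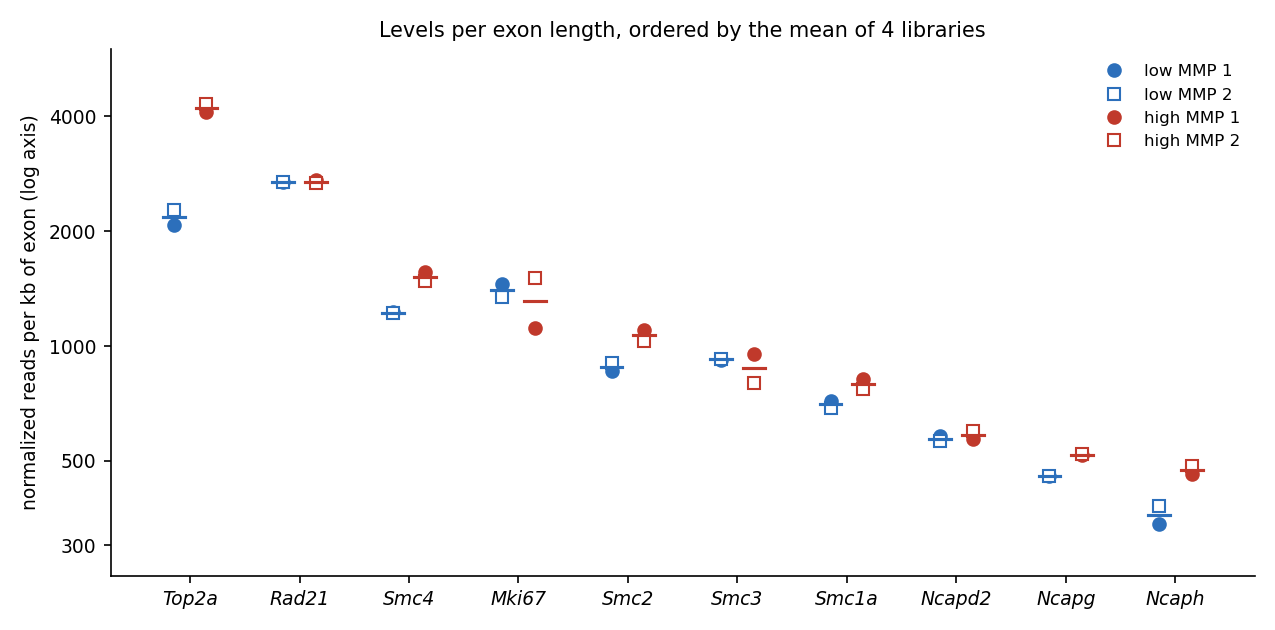
Normalized reads per kb of exon (log axis) for the 10 genes in order of their mean, low MMP in blue and high MMP in red, with circles for replicate 1, open squares for replicate 2 and lines for group means. *Rad21* has nearly the same level in all 4 libraries, while *Top2a* lies above it in high MMP and below it in low MMP cells.

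Of 39 other chromosome structure genes listed for comparison, 35 had a row, and *Smc1b*, *Rec8*, *Rad21l* and *Stag3*, the germline cohesin genes, did not. None passed the adjusted threshold in limma or edgeR, and 4 of them (*Sgo1*, *Sgo2a*, *Kif4* and *Cdca2*) were called by DESeq2, all higher in high MMP cells, as were 0.406% of all genes. An unadjusted limma p under 0.05 was reached by 8 genes with higher and 2 with lower values in high MMP cells, against 3.95% and 6.01% of all genes. With no variance trend this count of 10 genes was 5, in a fit where 782 of all genes were higher and 1198 lower. The median difference was 0.05, and both high MMP libraries were above both low MMP libraries for 12 of the 35 genes (13.5% of all genes) and below them for 7 (24.5% of all genes), while 16 overlapped.

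The 3 genes of smallest p among those with higher values act on mitotic chromosomes or protect cohesion. *Sgo2a*, a shugoshin that shields centromeric cohesin from cleavage, had 2213 and 2315 normalized reads in high and 1322 and 1470 in low MMP libraries (log2 difference 0.70, SE 0.09; limma adjusted p 0.472, DESeq2 adjusted p 0.000432). *Cdca2*, which encodes the phosphatase-targeting protein Repo-Man, had 2055 and 2392 in high and 1211 and 1315 in low MMP libraries (0.81, SE 0.11; limma adjusted p 0.472, DESeq2 adjusted p 3.17e-05). For both genes the groups were apart by more than the replicates of either group differed. *Kif4*, a chromokinesin that works with condensin on chromosome arms, had 1819 and 1901 in high and 1300 and 1262 in low MMP libraries (0.54, SE 0.08; limma adjusted p 0.472, DESeq2 adjusted p 0.0204). By role, both high MMP libraries were above both low MMP libraries for 4 of 4 chromokinesin and chromosome periphery genes and 3 of 4 cleavage and protection genes, against 13.5% of all genes. The other cleavage gene was *Pttg1*, which encodes securin, at -0.05 (limma adjusted p 0.921). The remaining 5 such genes were *Ncapd3*, *Stag2*, *Esco2*, *Nsmce2* and *Ctcf*. Condensin II and the SMC5/6 complex each had 1 gene above and 2 below.

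In the other direction, *Dscc1*, a subunit of a clamp loader that acts in cohesion establishment during replication, had 237.9 and 137.2 normalized reads in high and 352.2 and 333.7 in low MMP libraries. Both high MMP libraries were below both low MMP libraries, but they also differed from each other (log2 difference -0.92, SE 0.29; limma adjusted p 0.472). *Nsmce4a*, which encodes a subunit of the SMC5/6 complex, had 1312 and 1298 in high and 1562 and 1479 in low MMP libraries (-0.22, SE 0.08; limma adjusted p 0.473). *Esco1*, an acetyltransferase of Smc3, had 617.5 and 626.8 in high and 687.0 and 702.0 in low MMP libraries (-0.16, SE 0.08; limma adjusted p 0.628). The cohesin loader, release and maintenance genes (*Nipbl*, *Mau2*, *Wapl*, *Pds5a*, *Pds5b* and *Cdca5*) differed by -0.17 to 0.14, with *Mau2* (-0.17) lower in both high MMP libraries. The other topoisomerases differed by -0.16 to 0.08, and no gene of either set had an unadjusted limma p under 0.05. *Top2b*, the isoform of topoisomerase II that is expressed irrespective of division, was among them, with 3504 and 3710 in high and 3509 and 3382 in low MMP libraries and a difference of 0.07 (SE 0.08, limma adjusted p 0.878).

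**Figure D5:**
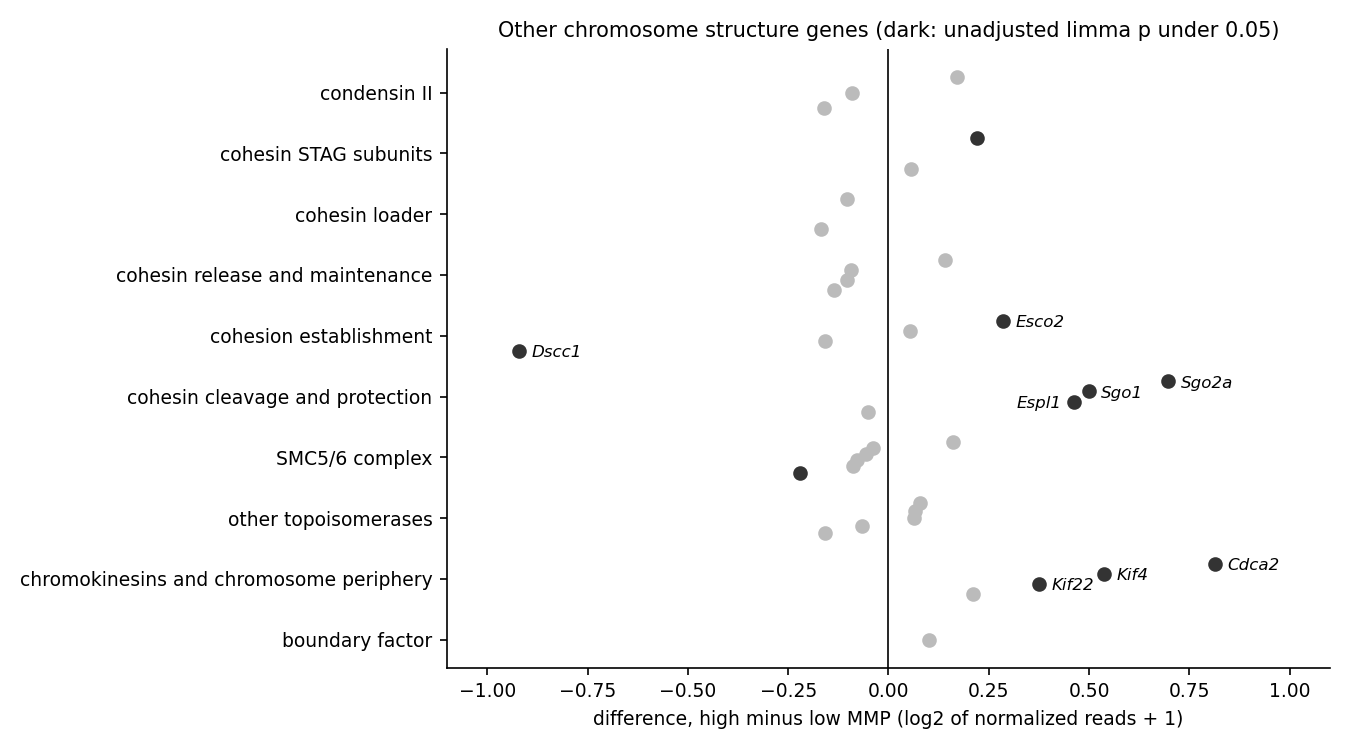
Difference between high and low MMP cells on the log2(normalized reads + 1) scale for the 35 other chromosome structure genes, in rows by role, dark where the unadjusted limma p was under 0.05. *Cdca2* (0.81), *Sgo2a* (0.70) and *Kif4* (0.54) lie farthest to the right and *Dscc1* (-0.92) farthest to the left. The loaders *Mau2* and *Nipbl* lie at -0.17 and -0.10, and the other topoisomerases between -0.16 and 0.08.

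Markers of cell cycle phase moved with the groups. The G2/M list of the Seurat package without the genes above (48 genes) had a summed level of 199032 and 203468 normalized reads in high and 155197 and 160432 in low MMP libraries, and 41 of its genes were higher in both high MMP libraries, against 13.5% of all genes. Its S-phase list (43 genes) summed to 120005 and 101792 in high and 141382 and 143678 in low MMP libraries, and 31 genes were lower in both high MMP libraries, against 24.5% of all genes. Among the members, *Top2a*, *Mki67*, *Smc4* and *Ncapd2* belong to the full G2/M list, and 2 of these 4 had overlapping groups. Other chromosome structure genes of that list were likewise left out of the 48 and are not counted among these 4. The part of cell cycle phase in the differences of the chromosome structure genes was not tested.

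Genes with the most similar profile were sought among 9989 other genes averaging at least 100 normalized reads, by the Euclidean distance of the log2 values of the 4 libraries after centering each gene. Nearest to the median profile of the 5 condensin genes were *Mis18a*, *Foxc2*, *Tefm*, *Rbm41* and *Kif20a* (distance 0.017 to 0.039), with differences of 0.24 to 0.27. Nearest to that of the cohesin genes were *Gmeb1*, *Gorasp2*, *Leo1*, *Chtop* and *Eif3j1* (0.033 to 0.036). The midpoint of *Top2a* and *Mki67* had *Slc25a25*, *Ghr*, *Nav2*, *Tnfrsf21* and *Thada* nearest (0.015 to 0.050), though with differences of 0.40 to 0.42 these resembled neither gene. Taken alone, a choice made after the values were seen, *Top2a* had *Ccnb1*, *Arl6ip1*, *Aurka*, *Kif11* and *Aurkb* nearest (0.047 to 0.123), with differences of 0.88 to 0.99. With 4 libraries such a likeness describes these samples only.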

How the data were processed

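RNA of 4 samples of sorted 4T1 cells (2 high MMP, 2 low MMP) had been sequenced from stranded mRNA libraries made from 200 ng of RNA. Alignment to mouse transcripts (GRCm38/mm10) and gene quantification were done by the authors with STAR (the submitters' processing notes also name HTSeq), followed by scaling to library size. In the table every gene was above 0 in at least 2 samples. The deposited values were a normalized signal per gene, with each column summing to about 20000000. Tool versions, the annotation release and the use of strand are not given in the sources used here. All 4 value columns belonged to samples of the series.

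Every value was a whole multiple of 1 step per library (100.0% within 0.1 of a whole read), which recovered 22591970 to 26395015 reads per library. Of 20197 identifiers, 19993 matched GENCODE M21, from which symbols, positions and exon lengths were taken. On log2(value + 1), limma 3.58.1 (trend, R 4.3.3) compared high with low MMP without a block, adjusting over all genes. This scale slightly understates changes of low genes. On recovered reads, edgeR 4.0.16 called 0 genes and DESeq2 1.42.0 called 118. Other alternatives were different scalings, pseudocounts and filters, the replicate number as a block, and leaving out each library. The scripts were tested on simulated data. Named were all 10 members, the 3 other chromosome structure genes of smallest p in each direction (mean of at least 10) and the 5 nearest profiles per set. The members and the gene lists were chosen with earlier results of these data known.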

Additional observations from a re-analysis of the deposited data

How the results depend on the processing

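The number of genes called was 0 in limma under every scaling, pseudocount and filter and without any 1 library (0 to 0), and in edgeR with no block. DESeq2 called 118, and edgeR called 106 once the replicate block was added. The replicate block was kept as an alternative, since the study ranked genes of these samples by a ratio of classes, without pairing. For other measures of 4T1 cells sorted by MMP the study used paired t-tests. The numbers shared by titles did not mark samples that deviate together (correlation of deviations -0.421 over 12902 genes with a mean of at least 10). With 2 samples per group, this does not settle whether the samples were paired. Crossed numbers, chosen after seeing the data, gave 733 calls in edgeR and 0 in limma. The members with an unadjusted p under 0.05 numbered 2 in limma with the replicate block (431 of all genes higher, 624 lower). They numbered 2 in edgeR with the replicate block (399 higher, 519 lower) and 2 with no variance trend (782 higher, 1198 lower). The other chromosome structure genes with an unadjusted p under 0.05 numbered 5 with no variance trend and 4 to 11 on leaving out 1 library. Over all genes the number under this threshold moved likewise, smallest without low MMP replicate 1 and largest without high MMP replicate 2. Each such fit has a lone library in 1 group, which shows no spread. The range from 4 to 11 is therefore not evidence about the chromosome structure genes. With the replicate block *Top2a* was the only member called in edgeR (0.99, adjusted p 0.00162).

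Of 170 values of single members under the alternatives, 161 kept their direction and side of the threshold. Another 4 moved past the threshold (*Top2a* in 3 fits, *Ncaph* in 1). The *Ncaph* call and 1 of the *Top2a* calls came from edgeR with the crossed numbers, which were chosen after seeing the data. The other 5 had the opposite sign. These were -0.007 for *Ncapd2* and 0.041 for *Smc3* without high MMP replicate 2, -0.004 for *Rad21* with quantile normalization and -0.010 without high MMP replicate 1, and 0.110 for *Mki67* without high MMP replicate 1, all of genes with overlapping groups. On leaving out each library in turn, the difference ranged from -0.007 to 0.069 for *Ncapd2*, -0.204 to 0.041 for *Smc3*, -0.010 to 0.019 for *Rad21* and -0.327 to 0.110 for *Mki67*. The difference of the per-library median over the condensin genes was 0.048, as in each library it fell on *Ncapg* or *Ncapd2*, and it was 0.089 with median-of-ratios scaling, 0.085 with TMM scaling and 0.023 to 0.072 on leaving out 1 library. That over the cohesin genes was -0.079, as it fell on *Smc1a* in high MMP replicate 2 and on *Smc3* in the others, though the median of the 3 differences was 0.005, and it was -0.199 to 0.041 on leaving out 1 library. At 1691 reads or more per member and library, the SD from counting alone was at most 0.035 on the log2 scale.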
